A study of Mus musculus with 6 samples.

Results

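Gpr15 and the chemokine receptors Ccr2, Ccr4, Ccr8, Ccr9, Cxcr3, Cxcr4, Cxcr5 and Cxcr6 were followed in CD8+ T cells cultured with an inhibitor of the histone demethylase LSD1. These 9 genes were chosen by symbol, as receptors that guide T cells to tissues, from 16281 genes in the deposited count table. CD8+ T cells were taken from spleens of OT1 mice (strain C57BL/6, genotype Tg(TcraTcrb)1100Mjb), whose transgenic T-cell receptor recognises an ovalbumin peptide. The share of cells that carried this receptor was not measured here. Cells of both groups were activated for 48 h with plate-bound anti-CD3 at 2 μg/ml, soluble anti-CD28 at 2 μg/ml and IL-2 at 20 ng/ml. They were then expanded with IL-2 for 3 days. The GSK group received GSK2879552, an irreversible LSD1 inhibitor, at 0.5 μM during activation and expansion, and the Veh group received vehicle. Poly(A) RNA was sequenced from 3 samples of each group. The paper names 3 separate mice, and a figure legend gives 3 mice per group. It does not state whether a Veh and a GSK culture with the same number came from 1 mouse.

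Chemokine receptors are proteins with 7 membrane-spanning segments that couple to inhibitory G proteins, and their ligands form gradients that direct a cell through blood vessels and tissue. Naive T cells rely on receptors for lymphoid organs, and activated CD8+ T cells exchange part of these for receptors of inflamed sites (Cxcr3, Ccr2), skin (Ccr4, Ccr8), mucosa and liver (Cxcr6), small intestine (Ccr9) and B-cell follicles (Cxcr5). GPR15 is a chemoattractant receptor of the same broad class that is best known for bringing T cells to the large intestine.

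Of the 9 genes, 7 had enough counts to be tested, and Ccr8 and Ccr9 did not. GSK treatment raised Gpr15 and Ccr4 past both thresholds used (an adjusted p under 0.05 in edgeR's quasi-likelihood test and a fold change over 1.5), and none of the 7 was lowered past both by edgeR. At an unadjusted p under 0.05, 4 of the 7 were lower, 1 of them by more than 1.5-fold, and DESeq2 also called 0 lower past both thresholds. Across all 11698 genes tested, 2.22% were higher and 4.09% were lower past both thresholds, 6.32% in all. By the adjusted p alone, Gpr15, Ccr4 and Ccr2 were higher and Cxcr3 and Cxcr4 were lower, while Cxcr5 and Cxcr6 did not pass. That threshold alone was met by 32.1% of all genes tested, with 16.6% of all genes tested higher and 15.5% lower. In all 7 tested genes the 3 GSK samples lay on 1 side of the 3 Veh samples, which was the case for 46.7% of all genes tested. Since 3 samples against 3 allow no two-sided p below 0.1 in an exact permutation test, each gene's p comes from the fit over all genes. In these bulk samples, fewer cells that carry a transcript and less of it in each cell cannot be told apart.

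**Figure D1:**
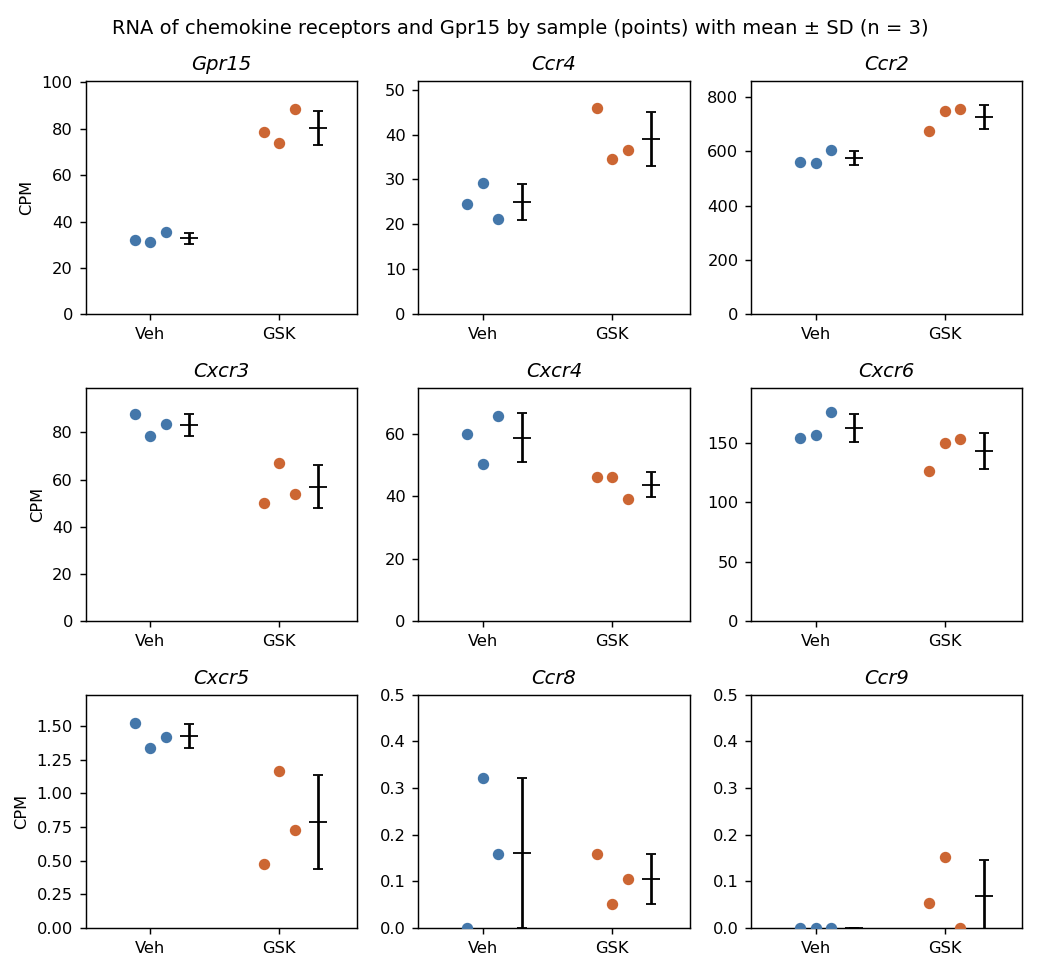
RNA level of each gene (CPM, counts relative to the TMM-scaled library size) in the 3 Veh and 3 GSK samples, with points for samples and bars for the mean ± SD (n = 3). Gpr15 lay between 31.1 and 35.6 CPM in Veh and between 73.7 and 88.5 CPM in GSK, and Ccr8 and Ccr9 stayed near 0.

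The sum of counts per sample ran from 18288447 to 18918811 in Veh and from 19149909 to 19846720 in GSK. Within a group, no pair of samples agreed as closely as counting error allows (chi-square divided by its degrees of freedom, 4.11 to 9.48), so no sample was a copy of another. The T-cell and CD8 lineage genes were high in every sample, with a summed level of 1937 to 2036 CPM in Veh and 1752 to 1869 CPM in GSK. Cd8a led this list, and 3 of its 5 tested genes were lower by the adjusted p. The summed level of the CD4 and regulatory T-cell list, led by Zbtb7b, was 68.8 to 82.4 CPM in Veh and 59.4 to 60.6 CPM in GSK, with Cd4 itself averaging 1.19 CPM (Veh) and 0.967 CPM (GSK). The NK-cell list summed to 388.7 to 525.7 CPM in Veh and 529.3 to 652.2 CPM in GSK and was led by Eomes, which CD8+ T cells also express. Some markers of other cells had few counts. The B-cell gene Ms4a1 had 0 to 2 counts per Veh sample and 4 to 8 per GSK sample. The macrophage genes Csf1r and Adgre1 had 1 to 5 and 0 to 1. The NK-cell gene Ncr1 had 0 counts in all samples but GSK replicate 1, with 1 count. Others on the same lists had more. Klrb1c (NK cell) had 29 to 44 counts in Veh and 46 to 70 in GSK, and Cd79b (B cell) 105 to 139 and 89 to 101. Of the myeloid list, Cd68 had 141 to 201 and 166 to 207, and Itgam 39 to 50 and 19 to 38. Gzma of the NK-cell list went from 253.9 ± 74.6 to 140.9 ± 47.9 CPM (SD, n = 3), opposite to Eomes. None of these others passed the adjusted p by edgeR. The summed levels of the B-cell list (6.25 to 8.38 CPM in Veh, 8.08 to 9.51 CPM in GSK), the myeloid list led by Ly6c2 (851.1 to 901.7 and 855.5 to 1110 CPM), the dendritic-cell list (14.6 to 17.1 and 14.8 to 18.1 CPM) and the erythroid list (0.158 to 0.322 and 0.0506 to 0.261 CPM) overlapped between groups, and those of the gamma delta T-cell and MAIT list (1.47 to 1.84 and 1.97 to 2.00 CPM) did not. Some low markers on these lists moved past both thresholds in either direction. The B-cell gene Cd22 had 4, 11 and 8 counts in Veh and 54, 53 and 44 in GSK (log2 fold change 2.65, adjusted p = 0.00015 by edgeR), and Cd40lg of the CD4 list had 4, 15 and 6 against 29, 24 and 22 counts (log2 fold change 1.52, adjusted p = 0.018 by edgeR). Lower were the dendritic-cell gene Itgax (log2 fold change -1.37, adjusted p = 0.0023 by edgeR), the myeloid gene Fcgr3 (log2 fold change -1.21, adjusted p = 0.036 by edgeR) and Ikzf2 of the CD4 list, from 27.0 ± 2.21 to 16.6 ± 2.35 CPM (SD, n = 3; log2 fold change -0.71, adjusted p = 0.00037 by edgeR). The call of Cd40lg was lost without Veh replicate 1 or 3 or GSK replicate 1 (adjusted p of 0.075 to 0.081 by edgeR), and that of Fcgr3 with DESeq2 (adjusted p = 0.11) and without any sample but Veh replicate 2 (adjusted p of 0.051 to 0.17 by edgeR). The part of other cells in the receptor results was not tested.

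Gpr15 showed the largest difference of the 7 tested genes that passed the adjusted p. Gpr15 (Entrez 71223) lies on the minus strand of chromosome 16 at 58716643 to 58718872 (GRCm38, RefSeq). It had 587, 579 and 677 counts in Veh replicates 1 to 3 and 1499, 1457 and 1698 counts in GSK replicates 1 to 3. Every GSK sample was above every Veh sample by more than the whole spread within either group. The level rose from 32.9 ± 2.40 CPM in Veh to 80.3 ± 7.53 CPM in GSK (SD, n = 3), a 2.44-fold difference (95% interval 2.18 to 2.74) with a log2 fold change of 1.29, a standard error of 0.08 and an adjusted p of 4.1e-07 by edgeR. It was the only member that also passed a test of its fold change against 1.5 (adjusted p = 3.9e-05 by edgeR). In the GENCODE M21 annotation, 204 exon bases of Gpr15 are shared with Cpox on the opposite strand, and 10.8% of the 31-base words of Gpr15 exons also occur in another gene, all of these in Cpox. The RefSeq models of these genes do not overlap. Cpox, a haem synthesis enzyme, measured 80.7 ± 3.66 CPM (Veh) and 92.4 ± 5.16 CPM (GSK; SD, n = 3), with a log2 fold change of 0.19 (adjusted p = 0.018 by edgeR). Cpox did not pass without Veh replicate 1 or 3 or GSK replicate 1 or 3 (adjusted p of 0.055 to 0.082 by edgeR).

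Ccr4, the receptor of CCL17 and CCL22, which marks T cells that enter skin, rose by a smaller factor. Ccr4 (Entrez 12773; chromosome 9, 114490316 to 114505476, minus strand) had 452, 544 and 404 counts in the Veh samples and 875, 683 and 702 counts in the GSK samples. GSK replicate 1 was the highest and the other GSK samples were close to each other, with no overlap between the groups. The level rose from 25.0 ± 3.99 to 39.0 ± 6.06 CPM (SD, n = 3), a 1.56-fold difference with a log2 fold change of 0.64 (95% interval 0.33 to 0.96) and an adjusted p of 0.0082 by edgeR. This fold was close to the threshold. Without Veh replicate 3 the log2 fold change was 0.54 (adjusted p = 0.017 by edgeR), and without GSK replicate 1 it was 0.51 (adjusted p = 0.014 by edgeR), both below 1.5-fold.

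Ccr2, the receptor of CCL2 that recruits cells to inflamed tissue, had the most counts of the 9 genes. Ccr2 (Entrez 12772; chromosome 9, 124101918 to 124109140, plus strand) had 10268, 10403 and 11468 counts in Veh and 12833, 14738 and 14464 counts in GSK. All 3 GSK samples exceeded the highest Veh sample. The level rose from 573.1 ± 25.6 to 724.6 ± 44.2 CPM (SD, n = 3), a 1.26-fold difference with a log2 fold change of 0.34 (95% interval 0.23 to 0.44) and an adjusted p of 0.0003 by edgeR. Leaving out any 1 sample gave log2 fold changes from 0.31 to 0.39. Of 6745 words of 31 bases in Ccr2 exons, 235 (3.48%) also occur in another gene, and reads that lie in them may have been counted or dropped.

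Cxcr3 and Cxcr4 were lower in GSK. Cxcr3, the receptor of CXCL9, CXCL10 and CXCL11 that brings effector T cells to sites of interferon response and to tumors, lies on the X chromosome (Entrez 12766; 101731535 to 101734147, minus strand). It had 1613, 1459 and 1587 counts in Veh and 954, 1328 and 1030 counts in GSK. GSK replicate 2 was nearer to Veh than the other GSK samples but was still below the lowest Veh sample. The level fell from 83.1 ± 4.74 CPM in Veh to 57.0 ± 9.03 CPM in GSK (SD, n = 3), 0.686 of the Veh level, with a log2 fold change of -0.54 (95% interval -0.77 to -0.31) and an adjusted p of 0.004 by edgeR. Without GSK replicate 2 the log2 fold change was -0.68 (adjusted p = 2.5e-06 by edgeR) and without Veh replicate 2 it was -0.59, and in both cases Cxcr3 was past the 1.5-fold threshold as well.

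Cxcr4, the receptor of CXCL12 that holds cells in bone marrow and other stroma, is on chromosome 1 (Entrez 12767; 128588199 to 128592299, minus strand). Its counts were 1105, 941 and 1255 in Veh and 878, 915 and 749 in GSK. Scaled to library size, Cxcr4 fell from 58.8 ± 7.81 to 43.8 ± 4.13 CPM (SD, n = 3), and the lowest Veh sample (50.5 CPM) was above the highest GSK sample (46.3 CPM). The log2 fold change was -0.43 (95% interval -0.65 to -0.20) with an adjusted p of 0.0097 by edgeR, and leaving out any 1 sample gave -0.52 to -0.33.

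Cxcr6 and Cxcr5 did not pass the adjusted p. Cxcr6, the receptor of CXCL16 found on T cells that reside in tissues, had 2840, 2926 and 3349 counts in Veh and 2402, 2970 and 2937 counts in GSK (Entrez 80901; chromosome 9, 123806477 to 123811754, plus strand). Mean levels were 162.5 ± 11.8 CPM (Veh) and 143.2 ± 14.9 CPM (GSK; SD, n = 3). The groups came close, with 154.5 CPM in the lowest Veh sample and 153.1 CPM in the highest GSK sample, and the log2 fold change was -0.18 (95% interval -0.35 to -0.01, adjusted p = 0.098 by edgeR). Cxcr5, which guides cells to B-cell follicles through CXCL13, was low, with 28, 25 and 27 counts in Veh and 9, 23 and 14 counts in GSK (Entrez 12145; chromosome 9, 44511787 to 44526444, minus strand). Its mean levels were 1.43 ± 0.0913 CPM (Veh) and 0.789 ± 0.35 CPM (GSK; SD, n = 3), with a log2 fold change of -0.85 (95% interval -1.61 to -0.08, adjusted p = 0.086 by edgeR). Of the runs with 1 sample left out, Cxcr5 passed only without GSK replicate 2, the GSK sample nearest to Veh. The log2 fold change was then -1.24 (adjusted p = 0.029 by edgeR). Without any other single sample the adjusted p was 0.14 to 0.27 by edgeR, and with DESeq2 it was 0.19. Exons of Cxcr5 share 110 bases with Bcl9l on the opposite strand.

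Ccr8 and Ccr9 were at or near 0. Ccr8, the receptor of CCL1 found on skin-resident and regulatory T cells, had 0, 6 and 3 counts in Veh and 3, 1 and 2 counts in GSK (Entrez 12776; chromosome 9, 120092133 to 120094906, plus strand). Ccr9, the receptor of CCL25 that directs T cells to the small intestine, had 0 counts in all 3 Veh samples and 1, 3 and 0 counts in GSK (Entrez 12769; chromosome 9, 123767211 to 123783457, plus strand). A count of 0 allows up to 3 counts per library, which is 0.158 to 0.163 CPM in the Veh samples and covers counting error only. A difference was not detectable at this depth for either gene, and no fold is given. Ccr9 exons also share 1932 bases with a transcript on the opposite strand, and 21.7% of their 31-base words occur in another gene.

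**Figure D2:**
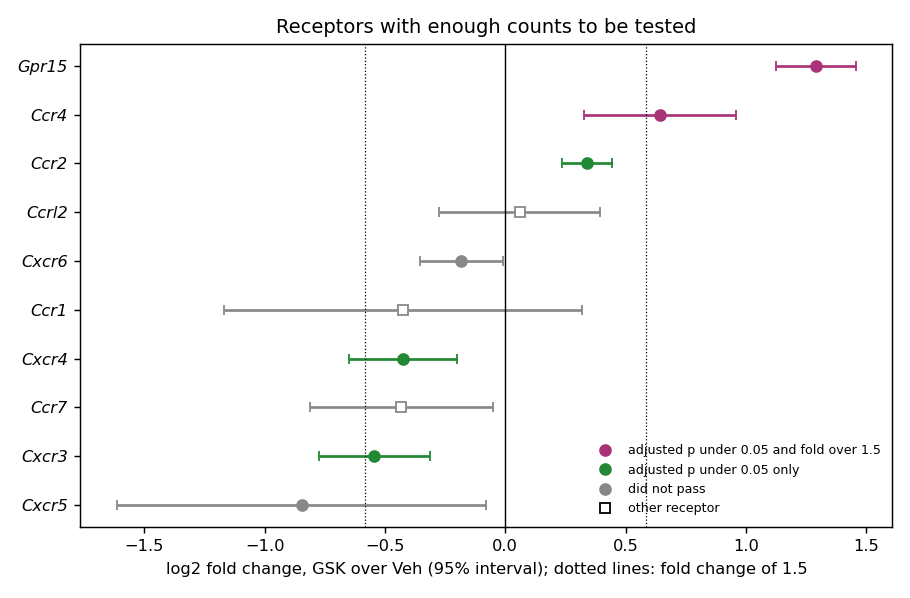
Log2 fold change of GSK over Veh with its 95% interval for the 7 tested genes (circles) and Ccr7, Ccr1 and Ccrl2 (squares). Of the genes shown, the whole interval lies past the dotted 1.5-fold line for Gpr15 alone, and the interval of Ccr4 reaches from 0.33 to 0.96.

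Levels were compared between genes after division by the length of their merged exons, as CPM per kb. In Veh, Ccr2 and Cxcr6 had the highest levels, 84.8 and 84.1 CPM per kb, and their samples overlapped. Cxcr3 followed at 48.0, Cxcr4 at 32.6, Gpr15 at 20.1, Ccr4 at 8.08 and Cxcr5 at 0.429 CPM per kb, and none of these neighbours overlapped. In GSK the order was Ccr2 (107.2 CPM per kb), Cxcr6 (74.2), Gpr15 (49.0), Cxcr3 (32.9), Cxcr4 (24.2), Ccr4 (12.6) and Cxcr5 (0.237), and no neighbours overlapped. Gpr15 thus moved from the fifth to the third place, past Cxcr4 and Cxcr3. When the longest transcript was used as the length, Ccr2 was at 100.0 CPM per kb in Veh and no longer overlapped Cxcr6 at 85.2, with the order of the genes as before in both groups.

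**Figure D3:**
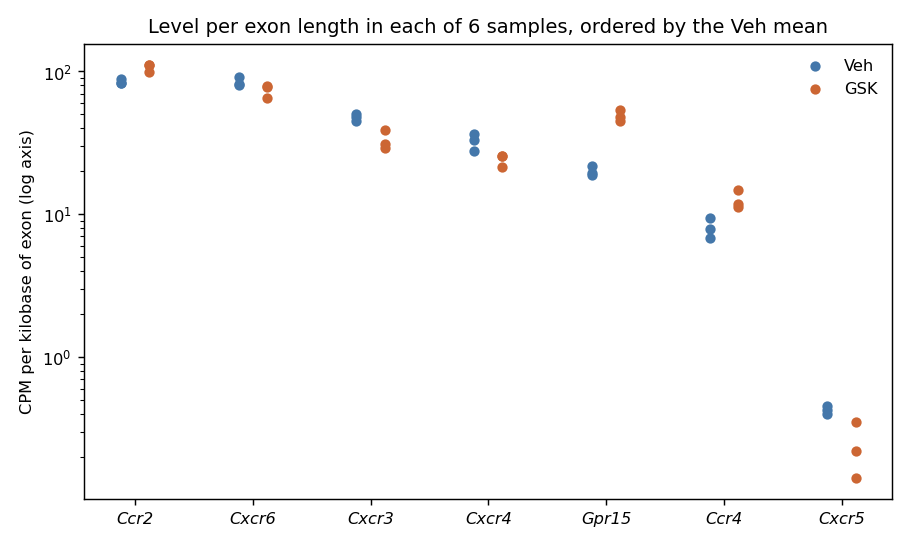
CPM per kb of merged exon on a log axis for the 7 tested genes, ordered by the Veh mean, with 1 point per sample (3 Veh, 3 GSK). Gpr15 was below Cxcr3 in all Veh samples and above it in all GSK samples, with means of 20.1 against 48.0 CPM per kb in Veh and 49.0 against 32.9 in GSK.

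The balance between receptors was also read within each sample, from ratios of CPM per kb in pairs chosen after their values were seen. Gpr15 stood at 0.385, 0.419 and 0.451 of Cxcr3 in the Veh samples and at 1.66, 1.16 and 1.74 of it in the GSK samples. Relative to Cxcr4, Gpr15 was 0.586, 0.679 and 0.595 in Veh and 1.88, 1.76 and 2.50 in GSK. Ccr2 was 1.63, 1.83 and 1.85 times Cxcr3 in Veh and 3.45, 2.84 and 3.60 times Cxcr3 in GSK. In each pair the first gene was higher and the second lower in every GSK sample. The Veh and GSK ratios therefore could not overlap, and the ratios add no support beyond the levels above.

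Ccr2, Cxcr6 and Ccr9 lie in the chemokine receptor cluster of chromosome 9. Counted from the start of Ccr9, Cxcr6 begins at 39.3 kb, inside Fyco1, which is on the opposite strand and shares no exon base with it, Ccr1 at 194.9 kb and Ccr2 at 334.7 kb. Genes of the cluster moved in both directions by the adjusted p. Lztfl1, at the end next to Ccr9, had a log2 fold change of -0.44 (adjusted p = 0.032 by edgeR), and Fyco1 of -0.37 (adjusted p = 0.0046 by edgeR), whereas Ccr2 was higher. Lztfl1 did not pass with DESeq2 (adjusted p = 0.06), nor without Veh replicate 1 or 3 or GSK replicate 1 or 3 (adjusted p of 0.053 to 0.14 by edgeR). Cxcr6 and Ccr1 between them did not pass, and Ccr9, Ccr1l1 and Ccr3 had too few counts. Lztfl1 and Fyco1 each share exon bases with noncoding genes in GENCODE M21.

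**Figure D4:**
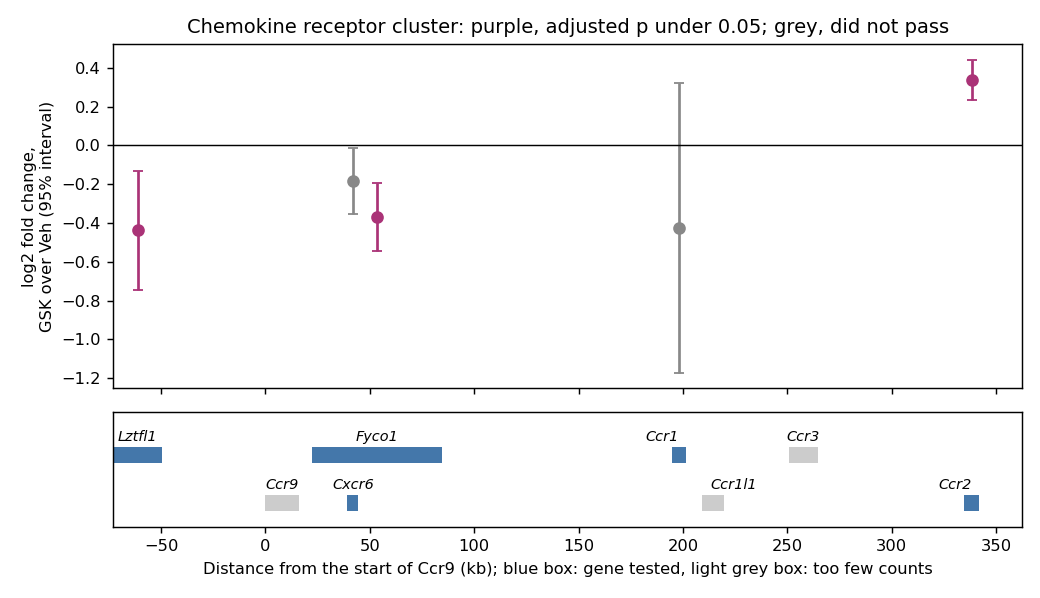
Upper panel, log2 fold change of GSK over Veh with its 95% interval for Lztfl1, Cxcr6, Fyco1, Ccr1 and Ccr2 of the chromosome 9 cluster, and lower panel, extents of these genes and of Ccr9, Ccr1l1 and Ccr3 as distance from the start of Ccr9 in kb. Lztfl1 and Fyco1 were below 0 and Ccr2 above 0, with the intervals of Cxcr6 (-0.35 to -0.01) and Ccr1 in grey since they did not pass.

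Around the other receptors, the nearest tested genes moved by less than 1.5-fold, except that Nhsl2 beside Cxcr3, with 9 to 24 counts per sample, had a log2 fold change of -0.79 and did not pass (adjusted p = 0.11 by edgeR). On the other side of Cxcr3, at 47.2 kb, Ogt, which adds O-GlcNAc to proteins, fell with a log2 fold change of -0.52 (adjusted p = 0.00094 by edgeR). Next to Gpr15, Cldnd1 at 9.0 kb had a log2 fold change of 0.35 (adjusted p = 0.0043 by edgeR) and Cpox one of 0.19, against 1.29 for Gpr15 itself. Neither Glb1 (15.9 kb) nor Cnot10 (80.4 kb), which flank Ccr4, passed, with adjusted p of 0.77 and 0.1 by edgeR. Beside Ccr8, the early-response gene Csrnp1 rose by 0.56 on the log2 scale (adjusted p = 8.3e-05 by edgeR) and Slc25a38 did not pass. Ccdc84 and Ddx6 beside Cxcr5 and Cd55 beside Cxcr4 (1837.5 kb away) were lower by the adjusted p, between 0.018 and 0.023 by edgeR, while Dars on the other side of Cxcr4 did not pass. Each of these 3 missed the threshold when any of several samples was left out, namely Veh replicate 1 or GSK replicate 1 or 3 for Ccdc84 (adjusted p up to 0.13 by edgeR), Veh replicate 1 or 3 or GSK replicate 1 for Cd55 (up to 0.07) and Veh replicate 1 or 2 or GSK replicate 1 or 3 for Ddx6 (up to 0.087).

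Of further chemokine receptors with enough counts, Ccr7 and Ccr1 did not pass the adjusted p by edgeR. Ccr7, which brings naive and memory T cells to lymph nodes, had 4368, 3239 and 3783 counts in Veh and 3103, 3167 and 2474 counts in GSK, or 203.4 ± 32.2 and 150.7 ± 18.9 CPM (SD, n = 3). Its log2 fold change of -0.43 did not pass with edgeR (adjusted p = 0.086) and did with DESeq2 (adjusted p = 0.039), without robust estimation (adjusted p = 0.012 by edgeR) and without Veh replicate 2 (adjusted p = 0.029 by edgeR). Ccr1 was low, with 11 to 18 counts per sample and a log2 fold change of -0.43 (adjusted p = 0.37 by edgeR). Of the atypical and related receptors, 7 of 8 listed had a row and only Ccrl2 was tested, with a log2 fold change of 0.06 (adjusted p = 0.8 by edgeR).

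Among 11 tested chemoattractant receptors for lipids and other non-chemokine ligands, 1 was higher and 2 were lower past both thresholds, and 3 were higher and 5 lower by the adjusted p. S1pr1, the sphingosine-1-phosphate receptor that lets T cells leave lymphoid organs, fell from 113.7 ± 21.6 to 48.3 ± 11.2 CPM (SD, n = 3), with a log2 fold change of -1.23 (adjusted p = 0.018 by edgeR), and lost this call without GSK replicate 1 or 3 (adjusted p of 0.054 and 0.057 by edgeR). Ltb4r1, the leukotriene B4 receptor of effector T cells, fell from 14.2 ± 3.45 to 5.71 ± 0.913 CPM (log2 fold change -1.31, adjusted p = 0.00032 by edgeR). Ptgdr2, a prostaglandin D2 receptor, had 5 to 8 counts per Veh sample and 14 to 20 per GSK sample (log2 fold change 1.33, adjusted p = 0.027 by edgeR). Its call was lost with DESeq2 (adjusted p = 0.11) and without Veh replicate 1 or 2 or GSK replicate 1 or 3 (adjusted p of 0.052 to 0.1 by edgeR), and it shares exon bases with Ccdc86. The median log2 fold change of the 11 was -0.27, and that of all genes tested was -0.0039. For this list and those below, 2.22% of all genes tested were higher and 4.09% lower past both thresholds. By the adjusted p, 16.6% of all genes were higher and 15.5% lower.

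Ligands of the 9 receptors were scarce in these cells. Of 16 listed, 12 had a row and 3 were tested. Cxcl10, an interferon-induced ligand of CXCR3, had 45, 62 and 30 counts in Veh and 102, 94 and 61 in GSK, a log2 fold change of 0.85 (adjusted p = 0.033 by edgeR). Its call was lost without Veh replicate 1 or 3 or GSK replicate 1 or 2, with adjusted p from 0.064 to 0.14 by edgeR, and Cxcl10 shares exon bases with Art3. The other 2 did not pass, and the median of the 3 was 0.26.

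Below the receptors, most of the signalling genes did not pass. The same was true of all genes tested, of which 32.1% passed the adjusted p and 6.32% both thresholds. Of 20 tested G-protein signalling genes, 1 was higher past both thresholds, 2 were higher and 3 lower by the adjusted p, and 15 did not pass, with a median log2 fold change of -0.0094. The gene called was Pik3r6, a regulatory subunit of the G-protein-activated PI3 kinase gamma, which went from 2.28 ± 0.709 to 5.22 ± 0.388 CPM (SD, n = 3; log2 fold change 1.19, adjusted p = 0.0016 by edgeR). Of 27 tested genes of the migration machinery, which includes the GTPases, their exchange factors and the actin regulators, 0 passed both thresholds in edgeR or DESeq2. By edgeR's adjusted p, 4 were higher and 3 lower, at an unadjusted p under 0.05, 5 were higher and 4 lower, and the median was 0.0082.

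Of 18 tested genes that switch receptors off, 3 were lower and 0 higher past both thresholds in edgeR, and 2 were lower and 0 higher in DESeq2. By the adjusted p alone 6 were lower and 1 higher, at an unadjusted p under 0.05, 7 were lower and 1 higher, and the median log2 fold change was -0.17. Arrb1 encodes beta-arrestin 1, which uncouples and internalises phosphorylated receptors. It had 4149, 3728 and 4502 counts in Veh and 2112, 1867 and 1428 counts in GSK, and fell from 220.7 ± 18.8 to 93.3 ± 18.2 CPM (SD, n = 3; log2 fold change -1.24, adjusted p = 0.0039 by edgeR). Rgs10, which speeds the GTP hydrolysis of inhibitory G proteins, fell from 43.9 ± 5.72 to 26.4 ± 4.57 CPM (log2 fold change -0.73, adjusted p = 0.004 by edgeR). The receptor kinase gene Grk4 had 43 to 104 counts per sample, and its call (log2 fold change -0.72, adjusted p = 0.036 by edgeR) was lost with DESeq2 (adjusted p = 0.052) and without Veh replicate 1 or GSK replicate 1 or 2 (adjusted p of 0.056 to 0.2 by edgeR).

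Of 34 tested transcription factors known to act on the receptor genes, 3 were higher and 6 lower past both thresholds, 6 were higher and 13 lower by the adjusted p, and the median log2 fold change was -0.12. Tbx21, which encodes T-bet, an activator of Cxcr3, had 827, 836 and 831 counts in Veh and 596, 535 and 522 in GSK, and fell from 44.5 ± 0.722 to 28.5 ± 2.39 CPM (SD, n = 3; log2 fold change -0.64, adjusted p = 4.6e-05 by edgeR). Eomes, the other T-box factor of CD8+ T cells, rose from 204.4 ± 9.38 to 433.2 ± 17.7 CPM (log2 fold change 1.08, adjusted p = 1.5e-08 by edgeR). Gata3, known for driving Ccr4 and Ccr8 in helper cells, fell from 38.6 ± 3.19 to 20.7 ± 2.91 CPM (log2 fold change -0.90, adjusted p = 6e-05 by edgeR). Rora fell from 25.9 ± 0.127 to 16.0 ± 1.44 CPM (log2 fold change -0.70, adjusted p = 8.2e-05 by edgeR). Rxra, the partner of retinoic acid receptors, rose from 42.0 ± 4.13 to 82.1 ± 7.45 CPM (log2 fold change 0.97, adjusted p = 1.3e-05 by edgeR), and Maf rose with a log2 fold change of 0.84 (adjusted p = 0.0092 by edgeR). Without GSK replicate 3, Maf was below 1.5-fold (log2 fold change 0.58, adjusted p = 0.019 by edgeR), and without Veh replicate 2 the list had 5 genes higher past both thresholds. Eomes, Gata3, Rora and Maf share exon bases with noncoding genes in GENCODE M21. The aryl hydrocarbon receptor gene Ahr, known for acting on Gpr15, measured 1.41 ± 0.24 CPM (Veh) and 2.06 ± 0.723 CPM (GSK) and did not pass (adjusted p = 0.21 by edgeR), and Smad3, which is known for the same, was lower by 0.38 on the log2 scale, with means of 89.1 and 68.6 CPM (adjusted p = 0.003 by edgeR).

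Among other genes of gut homing, those lower by the adjusted p outnumbered those higher, and 6 of 11 did not pass. Of all genes tested, 16.6% were higher and 15.5% lower by the adjusted p. Rara, Rarg, Rxra and Rxrb are also on the list of transcription factors, so Rxra (higher) and Rxrb (lower) are counted in both. Of the 11 tested, 1 (Rxra) was higher and 1 (Itga4) lower past both thresholds, 1 was higher and 4 lower by the adjusted p, and the median was -0.29. Itga4 and Itgb7 encode the alpha 4 and beta 7 integrin chains that together bind the gut vessel addressin. Itga4 fell from 48.9 ± 8.70 to 19.1 ± 4.64 CPM (SD, n = 3; log2 fold change -1.35, adjusted p = 0.0057 by edgeR) and shares exon bases with Cerkl. Itgb7 fell from 317.7 ± 7.08 to 213.0 ± 13.0 CPM with a log2 fold change of -0.58 (adjusted p = 4.9e-06 by edgeR), just short of 1.5-fold. The count of genes lower past both thresholds was 2 without Veh replicate 2 or GSK replicate 1 and 4 without GSK replicate 3.

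**Figure D5:**
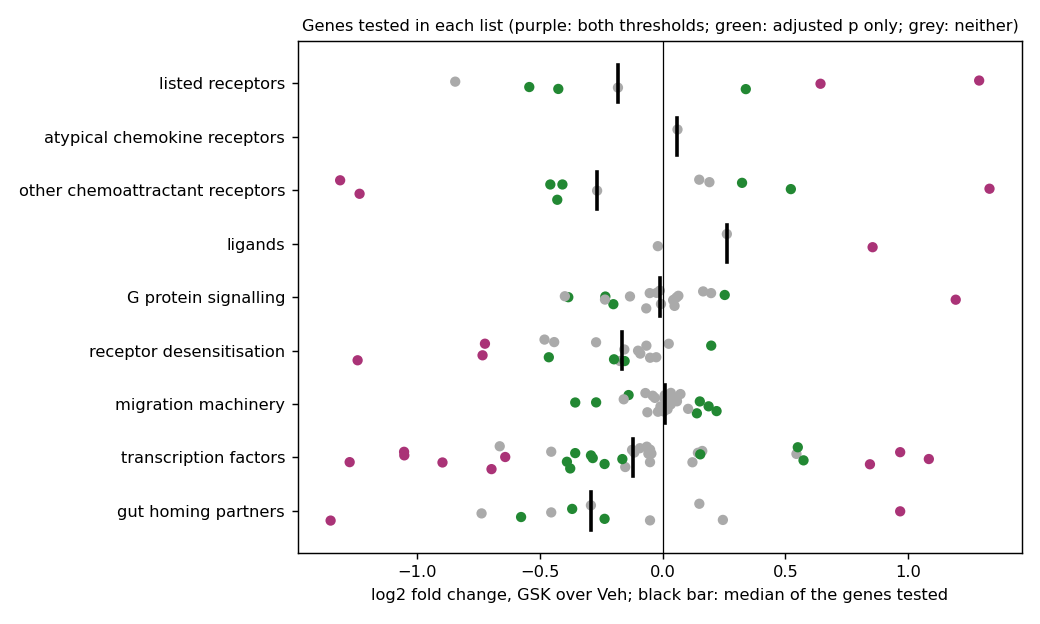
Log2 fold change of GSK over Veh for every tested gene of the 9 receptors and of the related lists shown, with 1 point per gene and a black bar at the median of the list. In the receptor desensitisation list the 3 genes past both thresholds are all to the left of 0, and the migration machinery genes lie close to 0 with a median of 0.0082.

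The genes whose log2 CPM followed each receptor most closely over the 6 samples were found by Pearson's r. With 6 samples in 2 groups, any gene that differs between the groups in the same way gives a high r, so these are descriptions. For Gpr15 they were Csk (r = 0.999), an inhibitor of Src-family kinases, and Eif2b3 (0.999), a translation initiation factor subunit. They were Nedd9 and Thoc6 for Ccr4 (0.994 and 0.994), Vasp and Spire2, both actin regulators, for Ccr2 (0.995 and 0.994), and LTO1 and Zfp574 for Cxcr3 (0.999 and 0.997). They were Mbd6 and Aspm for Cxcr4 (0.994 and 0.993), Prkcd and Yipf2 for Cxcr5 (0.993 and 0.992), and Arhgap29 and Gpc2 for Cxcr6 (0.986 and 0.979). Csk itself differed much less than Gpr15, with a log2 fold change of 0.21 (adjusted p = 0.0011 by edgeR).

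The promoter windows of 8 of the 9 genes (RefSeq, GRCm38.p6, the 250 bases before the transcript start in that table) were searched on both strands for the letters of the motifs named below. Motifs of Gata3, Rora, Rxra and Maf were not among those searched. The RUNX letters TGTGGT, found in 14% of all 32851 windows, occurred in the windows of Cxcr6, Cxcr3 and, at 2 places, Gpr15. The AP-1 letters TGANTCA (6.75% of windows) occurred for Ccr4 and Gpr15, 143 and 199 bases before the start in the table. The Ccr4 and Ccr2 windows belong to transcript starts inside the gene extents given above. Of the 250 bases before the start, 233 for Ccr2, 198 for Gpr15 and 122 for Cxcr3 lie in annotated exons. The xenobiotic response core GCGTG (28.2%) occurred for Cxcr4, Ccr8 and Cxcr3. No window of these genes held the T-box letters AGGTGTGA (1.12%), the GAS letters TTCNNNGAA (7.02%), the hypoxia core ACGTG (16.6%), the E-box CAGCTG (13%), the SMAD letters GTCTAGAC (0.167%) or the GFI1 core TAAATCAC (0.514%). The Cxcr4 window is shown, since it has no annotated exon in its 250 bases before the start (chr1:128592300-128592549, minus strand, 5′ to 3′), with the xenobiotic response core, 39 bases before the start, in capitals:
Cxcr4: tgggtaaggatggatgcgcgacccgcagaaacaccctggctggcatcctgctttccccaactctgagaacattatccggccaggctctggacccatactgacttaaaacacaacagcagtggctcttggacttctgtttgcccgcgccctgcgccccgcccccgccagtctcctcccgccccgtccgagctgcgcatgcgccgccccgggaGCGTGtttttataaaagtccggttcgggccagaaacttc
A match of letters is a description of the sequence and was not tied to binding here.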

How the data were processed

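RNA of CD8+ T cells was measured in 3 Veh and 3 GSK samples. The authors prepared stranded poly(A) libraries, trimmed reads with Trimmomatic, mapped them to GRCm38 with HISAT2 (version 2.1.0) and counted them per gene with HTSeq (version 0.11.2). The authors deposited these counts as they were, not normalized. The annotation release and the strand setting of the counting are not given in the sources used here, so overlapping genes are uncertain. For the comparison, edgeR (version 4.0.16 in R 4.3.3) was used with the robust quasi-likelihood test after TMM scaling and filterByExpr, with Benjamini-Hochberg adjustment over 11698 genes. A call needed a fold change over 1.5 besides an adjusted p under 0.05. DESeq2 (version 1.42.0), RLE scaling, 2 other filters, a replicate block, no robust estimation, other thresholds and leaving out each sample were alternatives. The code was tested on simulated counts. Intervals are at 95%. CPM use TMM-scaled totals, and r was computed on log2 CPM with a prior count of 2. Coordinates came from RefSeq by Entrez identifier (16197 of 16281 rows matched), and exon overlaps and lengths from GENCODE M21.

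The genes named were all 9 receptors, Ccr7, Ccr1 and Ccrl2 as other tested chemokine receptors, the called genes of each list (with over 6, the 3 with the smallest p in each direction), the 2 most correlated genes with a mean of at least 1 CPM per receptor, and the nearest tested neighbours. Csk values, Ahr, Smad3, Itgb7, single markers of other cells and the low-count Ccr10 and Ccr3 were named after their values were seen. The receptors and the lists were chosen with earlier results of these data known. Whether replicates are separate cultures of separate mice is known only from the paper's text and legend. Some items that these rules would name are not reported here.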

Additional observations from a re-analysis of the deposited data

How the results depend on the processing

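The directions of the 7 tested receptors held under every alternative run. When the fold change was tested against 1.5, 1 receptor was called higher (Gpr15), and Ccr2 (0.34), Ccr4 (0.64), Cxcr3 (-0.54) and Cxcr4 (-0.43) no longer passed (adjusted p = 1 by edgeR). With the adjusted p alone, 2 receptors were counted as lower. Leaving out 1 sample gave 1 to 2 receptors called higher and 0 to 2 called lower, and log2 fold changes of Cxcr5 from -1.24 to -0.59. Of 124 different genes tested on the related lists, 6 were higher and 12 lower past both thresholds. These counts were 2 and 1 with the fold change tested against 1.5, and 18 and 33 with the adjusted p alone. Over all 11698 genes tested, 260 (2.22%) were higher and 479 (4.09%) lower past both thresholds. The adjusted p alone gave 1941 (16.6%) and 1819 (15.5%). With the longest transcript as the length, levels were 100.0 (Veh) and 126.5 (GSK) CPM per kb for Ccr2 and 0.502 (Veh) for Cxcr5. The log2 fold change of Ccrl2 ranged from -0.045 (without GSK replicate 2) to 0.13 when 1 sample was left out, and was -0.017 without Veh replicate 3. When replicate numbers entered as a replicate block, Cxcr6 passed (log2 fold change -0.18, adjusted p = 0.033 by edgeR), as did Ccr7 (adjusted p = 0.014 by edgeR), and 253 genes were higher and 447 lower. Deviations from the group means of same-numbered samples correlated at -0.052, -0.081 and 0.16, and Veh replicate 1 correlated best with GSK replicate 2 (0.22), so the numbers were not taken as pairs, although whether same-numbered cultures share a mouse is not known. The causes of these differences were not tested. At 18288447 to 19846720 counts per sample, Ccr8 and Ccr9 could not be compared.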

Other observations

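Ccr10, the receptor of CCL27 and CCL28 in skin and mucosa, was left out of the test by the filter on low counts. It had 2, 4 and 3 counts in the Veh samples and 18, 10 and 15 counts in the GSK samples, with no overlap between the groups. Groups without overlap were found for 46.7% of all genes tested. Without the filter it had a log2 fold change of 2.17 (adjusted p = 0.0089 by edgeR), and the adjusted p was 0.027 by DESeq2. Ccr3, the receptor of eotaxins, had 8, 14 and 4 counts in Veh and 4, 2 and 2 counts in GSK, and did not pass without the filter (adjusted p = 0.092 by edgeR). Both were singled out after their values were seen, from all chemokine and atypical receptors left out by the filter. Of these, only Ccr10 had an adjusted p under 0.05 by edgeR without the filter.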
